A study of Mus musculus with 9 samples.

Results

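The genes described here encode the proteins of the cytosolic ribosome. They were taken as every counted symbol that begins with Rpl or Rps and a digit, with Rplp0, Rplp1, Rplp2 and Rpsa added. Symbols of annotated pseudogenes (marked -ps), kinases of the Rps6k family and Rps19bp1 were left out. The rule gave 93 of the 55291 symbols counted, 55 of the large subunit and 38 of the small subunit. Of the 93, 77 are the canonical genes and 16 are paralogs or copies, such as Rpl22l1 and Rps27l. Fau and Rack1 also encode ribosomal proteins and lie outside the symbol pattern, so they are given separately.

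The RNA came from acute myeloid leukaemia (AML) cells of the mouse that all carry Trp53(R172H/Δ). R172H is a point mutation of p53, a tumour suppressor. They were taken from in vitro cultures, from the bone marrow of wild-type recipient mice or from their lungs, with 3 libraries in each of the 3 groups. All 9 libraries carry the same Trp53 alleles, so no comparison bears on that genotype, and none includes cells with intact Trp53. Age, sex, time after transfer, the way the cells were purified and whether the libraries of a group are separate cultures or mice are not stated in the labels. The p-values therefore measure the spread between these libraries, which may be technical. In bulk RNA, fewer cells of a type and less RNA per cell cannot be told apart.

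Counted reads came to between 27485111 and 38761363 per library, and levels are CPM, counts per 1000000 reads of scaled library size. Among myeloid and progenitor markers (9 genes) Kit was highest, at 1167 ± 42.7 CPM for culture, 633 ± 59.5 CPM for bone marrow and 631 ± 129 CPM for lung. Cebpa and Cd33 had 0 reads in culture. Kit was the 1 marker called lower than culture in bone marrow and in lung (edgeR, adjusted p under 0.05). Of the 8 tested, 6 were higher in bone marrow (median log2 change 5.14) and 5 in lung (5.02). Over all genes 30.7% were higher and 29.8% lower in bone marrow, and 27.9% and 27% in lung, each against culture. Erythroid markers (8 genes, Gata1 and Klf1 among them) summed to 1994 to 2146 CPM in culture, 1188 to 1382 CPM in bone marrow and 1204 to 1478 CPM in lung. Against culture 1 of the 8 was called higher and 3 lower in bone marrow, and 3 higher and 4 lower in lung. Neutrophil markers (7 genes) summed to 1.03 to 2.31 CPM in culture, 310.5, 550.0 and 1894 CPM in the bone marrow libraries and 75.9, 9.88 and 10.5 CPM in the lung libraries. Resident macrophage markers (7 genes) stayed at or below 15.9 CPM in every library, and Marco was at 0 reads in culture and bone marrow. Lung epithelium markers (5 genes) reached 79.1, 37.0 and 13.8 CPM in the lung libraries and endothelium markers (5 genes) 30.5, 8.64 and 11.7 CPM. T and NK cell and B cell markers (5 genes each) stayed at or below 10.8 CPM, and stroma markers (5 genes) summed to between 141 and 266 CPM with Col1a2 and Dcn as their source in culture too.

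Ribosomal proteins assemble on ribosomal RNA in the nucleolus, and the finished subunits translate messenger RNA in the cytosol. Their messages begin with a terminal oligopyrimidine (TOP) tract at the cap, through which the kinase complex mTORC1 and the RNA-binding protein LARP1 control their translation and stability. In blood formation they are known from Diamond-Blackfan anaemia, in which loss of 1 copy of a ribosomal protein gene impairs red cell production. Free Rpl5 and Rpl11 bind Mdm2, which links ribosome assembly to p53.

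Promoter sequences are shown for 7 members whose levels differed most or whose paralog moved apart from them. They come from RefSeq (GRCm38.p6), run from 100 bases before the annotated start to 20 after it, and are written on the strand of the gene, with coordinates of the window. Capitals mark the motifs CCGGAAG (ETS family), AAGATGG (YY1) and GGGCGG (SP1), searched on both strands, and CTTTC or CTTCC on the sense strand from 25 bases before the start, where a TOP tract would lie. The letters AAG are shared by the ETS and YY1 motifs, so their matches can overlap.
Rps10, chr17:27635225-27635344, minus strand: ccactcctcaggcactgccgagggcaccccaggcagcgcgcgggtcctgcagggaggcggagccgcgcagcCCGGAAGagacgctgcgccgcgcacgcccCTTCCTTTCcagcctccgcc
Rpl26, chr11:68901466-68901585, plus strand: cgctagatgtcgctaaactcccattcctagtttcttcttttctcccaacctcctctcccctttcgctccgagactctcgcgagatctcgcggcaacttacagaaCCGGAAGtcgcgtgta
Rps25, chr9:44407614-44407733, plus strand: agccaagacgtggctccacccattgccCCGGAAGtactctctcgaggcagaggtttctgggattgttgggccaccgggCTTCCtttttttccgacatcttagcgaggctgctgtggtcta
Rpl22, chr4:152325626-152325745, plus strand: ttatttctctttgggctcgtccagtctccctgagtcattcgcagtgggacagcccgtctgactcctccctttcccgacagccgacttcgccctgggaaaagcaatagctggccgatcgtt
Rps27, chr3:90213629-90213748, minus strand: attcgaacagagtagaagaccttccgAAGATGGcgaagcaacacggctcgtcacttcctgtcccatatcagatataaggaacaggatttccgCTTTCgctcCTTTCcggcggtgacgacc
Rps27l, chr9:66945986-66946105, plus strand: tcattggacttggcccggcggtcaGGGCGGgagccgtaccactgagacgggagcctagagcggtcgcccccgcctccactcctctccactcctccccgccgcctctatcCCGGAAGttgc
Rpl22l1, chr3:28805408-28805527, plus strand: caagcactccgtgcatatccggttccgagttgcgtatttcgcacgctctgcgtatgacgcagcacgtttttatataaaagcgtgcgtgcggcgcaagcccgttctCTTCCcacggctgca
Rps10 and Rpl26 were among the largest rises in bone marrow against culture, and Rps25 and Rpl22 among the largest falls in lung. Rpl22l1 and Rps27l are the paralogs whose levels parted from those of Rpl22 and Rps27. Rps20, which moved as far, is named without a sequence. Rpl22 and Rps27l have 2 entries each, of which 1 is shown.

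Over the 57 canonical members with a promoter entry, CCGGAAG was found in 40.4% of the windows of 250 bases before to 50 after the start. It was found in 9.1% of all 27025 promoters of the same length and in 18.8% of the 10395 promoters of tested genes. CTTTC lay between 25 bases before and 50 after the start in 49.1% of the canonical members, against 9.5% of all promoters, and CTTCC in 40.4% against 15.4%. AAGATGG was found in 14.0% against 6.5%, and GGGCGG in 59.6% of the members, 35.9% of all promoters and 62.8% of those of tested genes. Canonical members with and without CCGGAAG had median log2 changes of 0.47 and 0.37 in bone marrow against culture and -0.38 and -0.36 in lung against bone marrow. For the other 4 motifs, members with a match had the lower median in bone marrow against culture. The values were 0.40 with and 0.44 without for YY1, 0.41 and 0.44 for SP1, 0.41 and 0.44 for CTTTC, and 0.37 and 0.46 for CTTCC. None of these differences was tested. A match is a run of letters in a window and was not tested as a binding site.

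As a whole, these genes took a larger share of the RNA in bone marrow than in culture or lung. They held 2.22%, 2.02% and 2.12% of the counted reads in the culture libraries, 2.61%, 3.17% and 2.60% in the bone marrow libraries and 2.01%, 2.16% and 2.33% in the lung libraries. The 3 bone marrow libraries lay above all 6 others, and the culture and lung libraries overlapped. Summed levels were 21744 ± 1018 CPM for culture, 27413 ± 3073 CPM for bone marrow and 21590.3 ± 1713 CPM for lung (SD, n = 3). Bone marrow thus stood at 1.26 times culture and lung at 0.788 times bone marrow. The ratio of lung to culture was 0.993. The summed difference between bone marrow and culture was 5669 CPM.

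**Figure D1:**
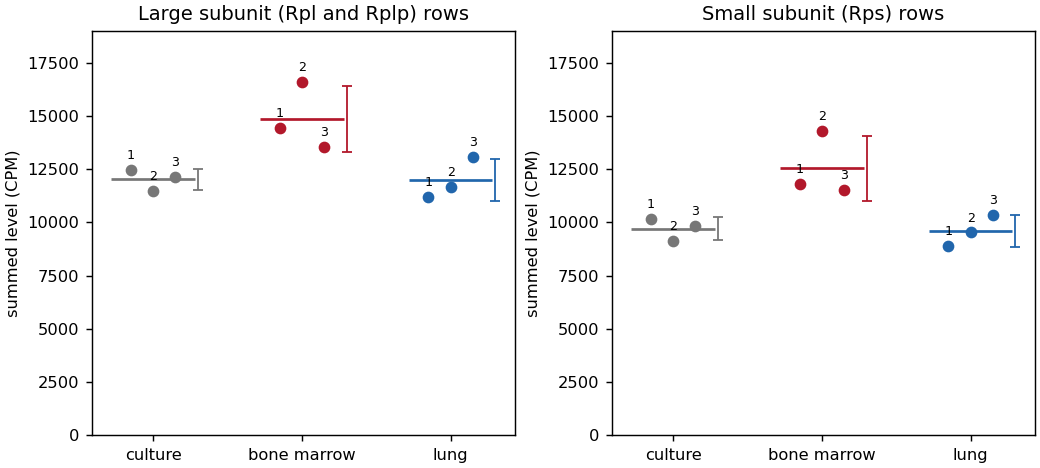
Summed level of the large subunit rows (left) and small subunit rows (right) in CPM, with 1 numbered point per library, a line at the group mean and a bar of 1 SD. All 3 bone marrow libraries lie above the culture and lung libraries on both sides, with bone marrow replicate 2 highest.

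Both subunits took part. Large subunit rows summed to 12035 ± 492 CPM for culture, 14869 ± 1569 for bone marrow and 11993 ± 989 for lung, and small subunit rows to 9709 ± 527, 12543 ± 1521 and 9598 ± 732 CPM (SD, n = 3). The large to small ratio was 1.24 ± 0.0170, 1.19 ± 0.0338 and 1.25 ± 0.0202 in the 3 groups. Bone marrow replicate 2 was the highest of the bone marrow libraries for 76 of the 87 members tested (87.4%), against 31.7% of all genes. It was the highest of all 9 libraries for 72 members. Lung replicate 1 was the lowest of all 9 for 36 members and culture replicate 2 for 33.

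**Figure D2:**
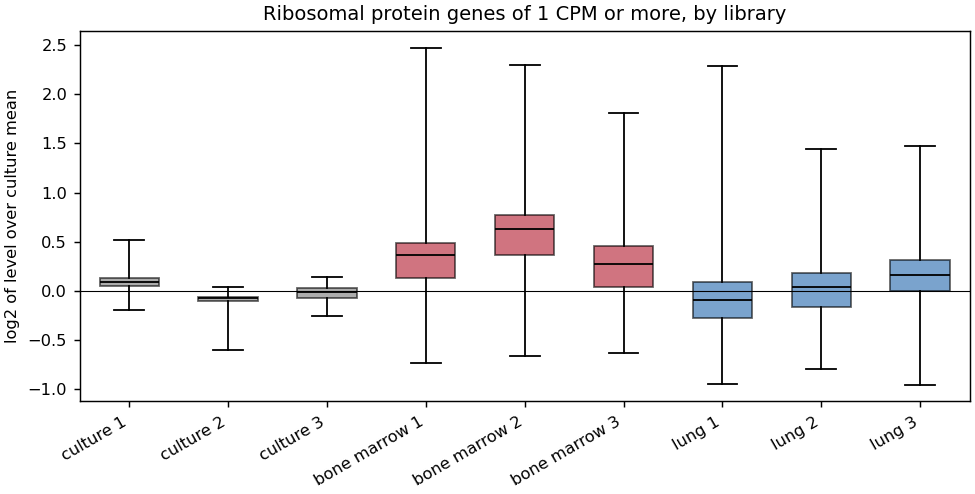
Box plots over the 85 members of 1 CPM or more of the log2 level in each library relative to the culture mean of the same gene, with the median, the quartiles and whiskers to the extremes. Bone marrow medians are 0.36, 0.63 and 0.28, and lung medians are -0.09, 0.04 and 0.16.

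The order of the members by level changed little between groups. Spearman's rho of the mean levels of the 77 canonical members was 0.967 for culture and bone marrow, 0.994 for bone marrow and lung and 0.967 for culture and lung, a description across genes that share their length and sequence. Rps3, Rplp0, Rpl4 and Rps2 were among the members of highest CPM. Per kilobase of coding sequence, Rpl41, whose coding sequence has 75 bases, stood highest at 4478 CPM. Reads were counted per gene and not per coding sequence, and the Rpl41 transcript has 544 bases. The rank of Rpl41 therefore rests on its short coding length. Rps3 stood at 3032 CPM, Rplp0 at 1605 CPM and Rpl4 at 1187 CPM over all libraries. The median canonical member was at 443.9 CPM per kilobase, and the lowest were Rpl24 at 13.3, Rpl23a at 17.9 and Rps10 at 40.1 CPM per kilobase.

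Such low values stand beside shared sequence. A median of 93.0% of the 50-base windows of a canonical coding sequence also occur in a transcript of another annotated gene and 67 of 77 members share over 50% of their windows. Rpl24 and Rpl23a share 100% of them and Rps10 93.0%, whereas Rps3 shares 8.09%. How reads that match several genes were counted is not stated in the labels or notes, so the level of a single member is uncertain where its copies could take reads. Across members, Spearman's rho between the shared share and the level per kilobase was -0.43, a description. Only 3 canonical members share under 10% of their windows, of which 3 rose in bone marrow against culture and 2 fell in lung against bone marrow. Rps3 and Rpl8, both among them, rose in bone marrow against culture (log2 change 0.25 ± 0.09 and 0.37 ± 0.09). The Rps3 call was lost in 6 of 20 alternatives. Rps3 fell in lung against bone marrow (log2 change -0.40 ± 0.09) and Rpl8 did not pass (log2 change -0.20 ± 0.09, adjusted p = 0.117). Rpl8 was chosen after its values were seen. Of the 67 members that share over 50%, 45 rose in bone marrow against culture and 48 fell in lung against bone marrow. Over all 77 canonical members 67.5% rose and 71.4% fell in these comparisons, and over all genes tested 30.7% and 11.1%. Whether shared sequence bears on the changes was not tested. The 319 pseudogene rows left out by the rule, 258 of them with reads, summed to 102 ± 9.34 CPM for culture, 148 ± 11.5 for bone marrow and 102 ± 2.73 for lung.

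Against culture, ribosomal protein genes rose broadly in bone marrow. Of 93 members 87 had enough reads to be tested, and 57 of these rose and 1 fell in edgeR's quasi-likelihood test (adjusted p under 0.05 over 15066 genes). In this comparison 30.7% of all genes tested were called higher and 29.8% lower. The median log2 change was 0.44 over the members and 0.05 over all genes. Among the 5171 genes of 50 CPM or more, 33.7% were called higher, and so were 52 of the 75 members among them (69.3%). The groups did not overlap in the higher direction for 54 members, and in 34.3% of all genes.

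Rps10, on chromosome 17 from 27630418 to 27636669 (GRCm38), was among the 5 largest rises in members of 10 CPM or more. It sits at the mRNA entry side of the small subunit and is a Diamond-Blackfan gene. Its level was 14.2, 13.3 and 14.1 CPM in the culture libraries, 26.7, 28.5 and 25.2 CPM in the bone marrow libraries and 18.2, 17.8 and 20.7 CPM in the lung libraries. Its bone marrow libraries lay above those of both other groups (log2 change 0.95 ± 0.11, adjusted p = 6.07e-06), at a level that its copies make uncertain.

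Rpl26, a protein at the exit of the peptide tunnel that is also known to bind Trp53 messages, was at 153, 135 and 139 CPM in the culture libraries, 232, 278 and 228 CPM in the bone marrow libraries and 165, 171 and 193 CPM in the lung libraries (log2 change 0.79 ± 0.10, adjusted p = 9.55e-06). The groups did not overlap. The paralogs Rps27l (log2 change 0.94 ± 0.11, adjusted p = 7.06e-06) and Rpl36al (log2 change 0.83 ± 0.12, adjusted p = 5.13e-05) rose as far and are described with their main genes. Rpl24 rose further, from 3.66 ± 0.436 to 9.24 ± 1.06 CPM (log2 change 1.33 ± 0.17), and so did the copy Rpl6l, from 0.467 ± 0.184 to 2.17 ± 0.485 CPM (log2 change 2.22 ± 0.37). Both lie at low levels and share most of their sequence with other genes, and both were chosen after their values were seen.

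Some of the most abundant members moved less. Rps3, which recognises mRNA at the entry of the small subunit, was at 2199.8, 2011 and 2210.4 CPM in the culture libraries, 2293, 2891 and 2478 CPM in the bone marrow libraries and 1829, 1902 and 2079 CPM in the lung libraries. Its rise in bone marrow was small (log2 change 0.25 ± 0.09, adjusted p = 0.0317), and the call was lost without culture replicate 1, 2 or 3 (adjusted p = 0.0854, 0.168 and 0.0607), without bone marrow replicate 2 (0.153) and without lung replicate 2 (0.0523), and under the replicate block with 6 libraries (0.063). Rpl4, whose long extension lines the peptide tunnel, was at 1518 ± 21.4 CPM for culture, 1533 ± 120.3 CPM for bone marrow and 1424 ± 155 CPM for lung (log2 change 0.01 ± 0.09 in bone marrow against culture, adjusted p = 0.904). Rps2, at 659 ± 37.9 CPM for culture, 659 ± 73.6 CPM for bone marrow and 597 ± 53.9 CPM for lung, gave a log2 change of 0.00 ± 0.10 in the same comparison (adjusted p = 0.993).

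Ribosomal protein RNA fell broadly in lung against bone marrow. Of the 87 members 0 rose and 59 fell in edgeR's quasi-likelihood test, where 14.2% of all genes tested were called higher and 11.1% lower. The median log2 change was -0.36 over the members and -0.01 over all genes, and 86 of the 87 estimates were below 0. At an unadjusted p under 0.05, and likewise in DESeq2 and limma-voom, 0 members were higher. Among genes of 50 CPM or more, 13% were called lower, against 54 of the 75 members (72%). For 57 members the libraries did not overlap in the lower direction, as for 18.1% of all genes. The number of members that fell rested on single libraries. It was 25 without bone marrow replicate 2, 27 without lung replicate 1, 35 without lung replicate 2, 76 without bone marrow replicate 3 and 39 when only the 6 libraries of these groups were fitted. All 25, 27, 35 and 39 of the smaller sets were among the 59. The median log2 change stayed between -0.45 and -0.26 when single libraries were left out.

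**Figure D3:**
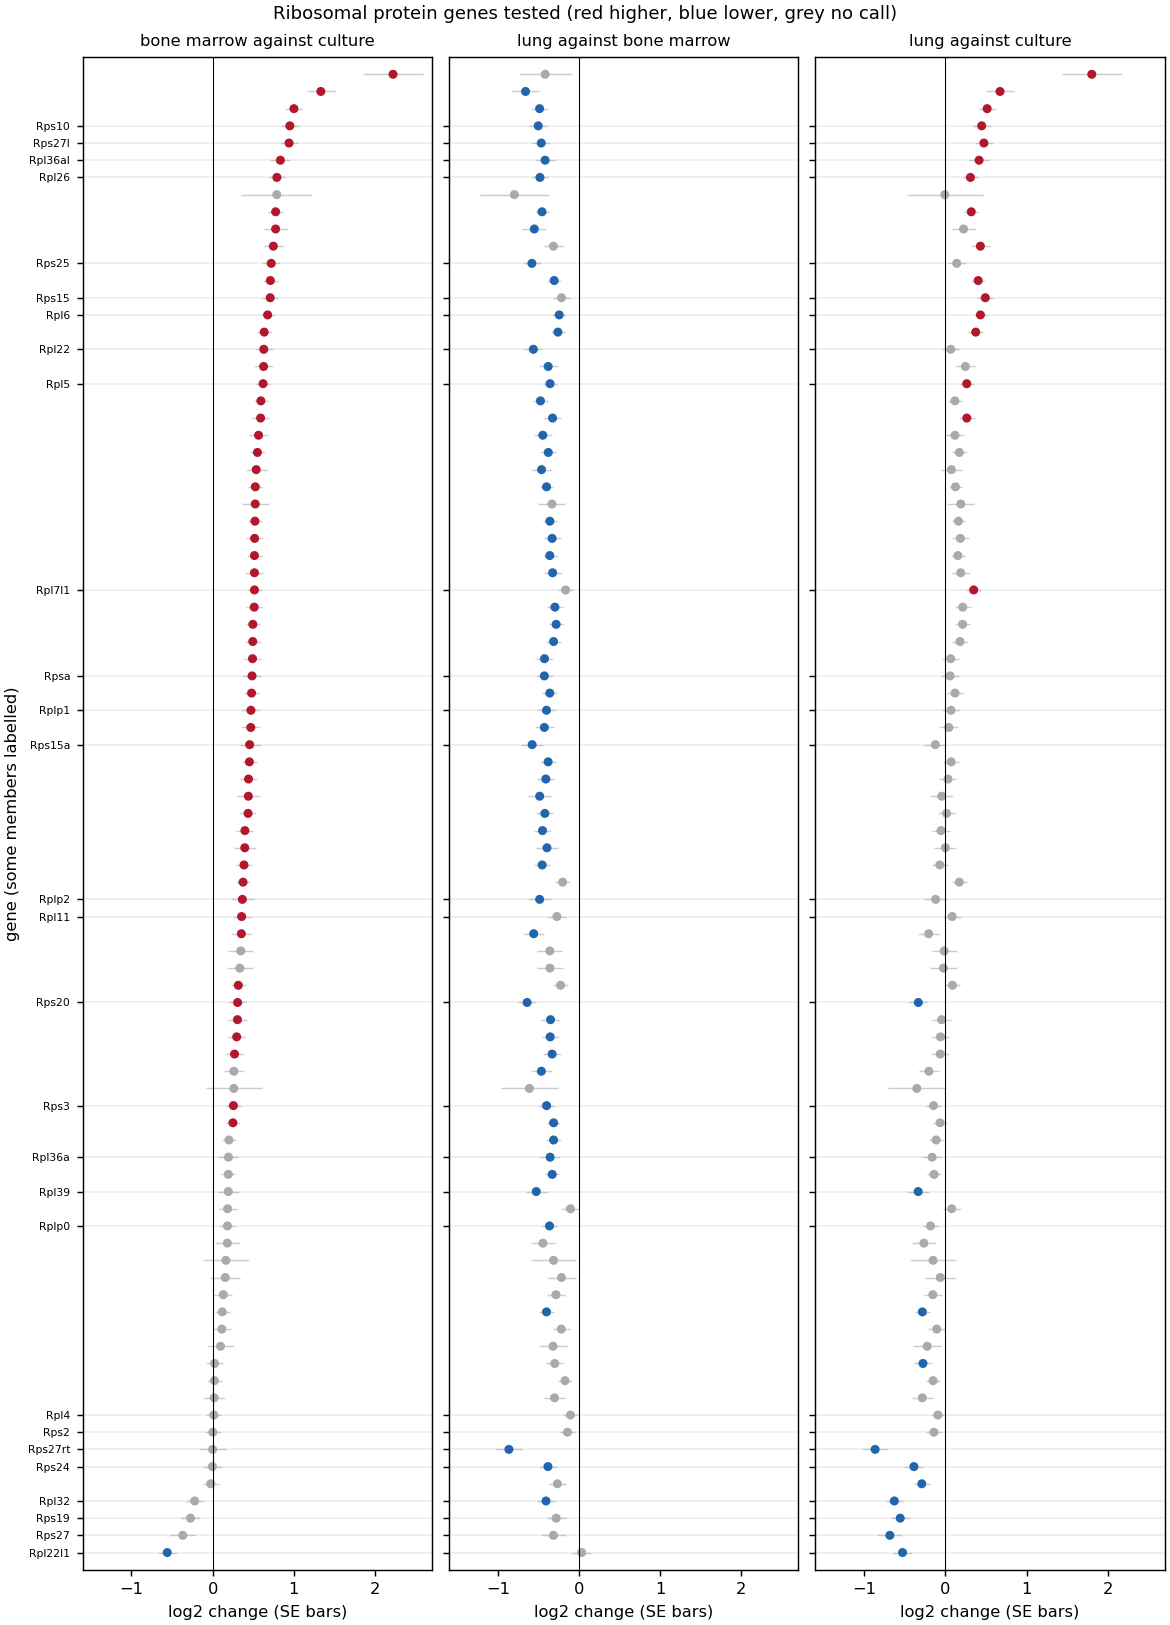
Log2 change with its standard error for each of the 87 members tested, some of them labelled, ordered by the change in bone marrow against culture, in the 3 comparisons. Red marks a member called higher, blue one called lower and grey one with no call. In lung against bone marrow 59 members are called lower and 0 higher.

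Rps20, a protein of the head of the small subunit, fell furthest among members of 10 CPM or more. It was at 188, 162 and 176 CPM in the culture libraries, 212, 254 and 184 CPM in the bone marrow libraries and 130.1, 136 and 151 CPM in the lung libraries. The lung libraries lay below all 6 others (log2 change -0.64 ± 0.11, adjusted p = 0.00146). Rps25, also in the head and known for its part in initiation at internal ribosome entry sites, was at 226, 187 and 193 CPM in the culture libraries, 303, 392 and 304 CPM in the bone marrow libraries and 209.6, 213 and 245 CPM in the lung libraries (log2 change -0.58 ± 0.11, adjusted p = 0.00315). Its lung libraries lay below the bone marrow libraries and overlapped those of culture.

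Rps15a, a Diamond-Blackfan gene of the small subunit, was at 112, 91.2 and 95.1 CPM in the culture libraries, 119, 165 and 125 CPM in the bone marrow libraries and 78.0, 94.2 and 102 CPM in the lung libraries (log2 change -0.58 ± 0.14, adjusted p = 0.00969). Rpl22, an RNA-binding protein of the large subunit, was at 66.5, 57.6 and 60.2 CPM in the culture libraries, 91.4, 111 and 82.9 CPM in the bone marrow libraries and 58.3, 64.8 and 70.0 CPM in the lung libraries (log2 change -0.56 ± 0.11, adjusted p = 0.00342). For each of them the bone marrow libraries were the highest, and the lung and culture libraries overlapped. The copy Rpl37rt fell with them, to 7.70 ± 0.218 CPM from 11.3 ± 0.731 CPM (log2 change -0.56 ± 0.13). Rps27rt, a single-exon copy of Rps27, had the lowest estimate of all members in this comparison, at 6.04, 7.15 and 6.81 CPM in the bone marrow libraries and 3.69, 3.85 and 3.45 CPM in the lung libraries (log2 change -0.86 ± 0.16, adjusted p = 0.00253).

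Beside these falls, neutrophil markers were 310.5 to 1894 CPM in bone marrow and 9.88 to 75.9 CPM in lung. The bone marrow library with the most neutrophil marker RNA was replicate 3 (1894 CPM), and the one with the most ribosomal protein RNA was replicate 2 (550.0 CPM of neutrophil markers). Lung replicate 1, the lowest of the lung libraries for these genes, had the most lung epithelium (79.1 CPM), endothelium (30.5 CPM) and neutrophil (75.9 CPM) marker RNA of the 3. Their part in the result was not tested. The difference in summed ribosomal protein level between lung and bone marrow was -5822 CPM.

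Against culture, lung cells showed no common direction. Of the 87 members 16 rose and 11 fell, where 27.9% of all genes tested were called higher and 27% lower. Both shares of the members, 18.4% and 12.6%, lay below those of all genes. The median log2 change was 0.03 over the members and 0.02 over all genes. With only the 6 libraries of these groups fitted 25 members rose, without culture replicate 1 the number that fell was 7, and without lung replicate 1 it was 5.

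Rps10 and Rps27l were among the 5 largest rises in lung as in bone marrow. Both comparisons share the culture libraries, so their values are given side by side and not as independent results. Rps10 had a log2 change of 0.45 ± 0.11 in lung against culture (adjusted p = 0.0035), beside 0.95 in bone marrow, and Rps27l one of 0.48 ± 0.11 beside 0.94. Rps15, of the head of the small subunit, was at 97.3, 91.2 and 83.9 CPM in the culture libraries, 151, 161 and 133 CPM in the bone marrow libraries and 117, 123 and 143 CPM in the lung libraries (log2 change 0.49 ± 0.10, adjusted p = 0.000896). Rpl6, a large subunit protein, was at 253, 244 and 250.4 CPM in the culture libraries, 389, 433 and 373 CPM in the bone marrow libraries and 316, 323 and 369.8 CPM in the lung libraries (log2 change 0.43 ± 0.08, adjusted p = 0.000657). For Rps15 and Rpl6 every lung library lay above every culture library. The bone marrow libraries lay above the lung libraries for Rpl6 and overlapped them for Rps15.

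Among members of 10 CPM or more, the 5 largest falls in lung against culture were those of Rps27, Rpl32, Rps19, Rpl22l1 and Rps24. The copy Rps27rt, below that level, fell further (log2 change -0.86 ± 0.16, adjusted p = 0.000535). Rps27, a zinc finger protein of the small subunit, was at 261, 217 and 212 CPM in the culture libraries, 164, 222 and 149 CPM in the bone marrow libraries and 119, 154 and 157 CPM in the lung libraries. The lung libraries lay below all culture libraries (log2 change -0.68 ± 0.15, adjusted p = 0.00309), and its log2 change in bone marrow against culture was -0.37 ± 0.15 (adjusted p = 0.0576). The bone marrow value passed in 6 alternatives. These were DESeq2 (adjusted p = 0.0252), limma-voom (0.0454), no low-count filter (0.000992), the replicate block with 6 libraries (0.0159) and the omission of bone marrow replicate 2 or lung replicate 1 (adjusted p = 0.00381 and 0.0369). Rps19, the gene most often mutated in Diamond-Blackfan anaemia, was at 252, 226 and 234 CPM in the culture libraries, 181, 234 and 174 CPM in the bone marrow libraries and 139.6, 168 and 177 CPM in the lung libraries (log2 change -0.56 ± 0.12, adjusted p = 0.00129). Its bone marrow libraries overlapped those of culture.

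Rpl32, a large subunit protein often used as a reference gene in PCR, was at 466, 404 and 449.9 CPM in the culture libraries, 341, 451 and 339.9 CPM in the bone marrow libraries and 265, 299.9 and 289.7 CPM in the lung libraries (log2 change -0.63 ± 0.11, adjusted p = 0.000271). Rps24, a further Diamond-Blackfan gene, was lower in lung, moving from 141 ± 13.9 to 108 ± 13.2 CPM (log2 change -0.39 ± 0.12, adjusted p = 0.0122). That call was lost without lung replicate 1 (adjusted p = 0.0579). Rpl22l1 fell as well (log2 change -0.53 ± 0.12, adjusted p = 0.00204).

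Over the 3 comparisons 36 members were higher in bone marrow than in culture and in lung, with no call between lung and culture. A further 12 were higher in bone marrow than in both and also higher in lung than in culture. No call was made in any comparison for 15 of the 87. For 5 members the level was lower in lung than in both other groups, with no call between bone marrow and culture, and 4 were lower in lung against culture alone. Rps20 was called higher in bone marrow and lower in lung than in culture, though its bone marrow and culture libraries overlapped. These patterns were not counted over all genes, so no background share stands beside them. Any 2 of the comparisons share the libraries of a group, so their calls are not independent. Bone marrow replicate 2 alone was the highest of all 9 libraries for 72 of the 87 members.

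The 3 proteins of the stalk, which recruits the translation factors to the large subunit, fell in lung against bone marrow, as did most members. In this comparison 67.8% of all members tested and 11.1% of all genes were called lower. The median log2 change was -0.40 for the stalk and -0.36 for all members. Rplp0, the base of the stalk, was at 1474, 1445 and 1638 CPM in the culture libraries, 1602, 1914 and 1651 CPM in the bone marrow libraries and 1274, 1264 and 1479 CPM in the lung libraries (log2 change -0.36 ± 0.09, adjusted p = 0.0139). Rplp1 was at 315, 277 and 303 CPM in the culture libraries, 401, 494 and 346 CPM in the bone marrow libraries and 281, 324 and 335 CPM in the lung libraries (log2 change -0.40 ± 0.12, adjusted p = 0.0243). Rplp2 was at 286, 249 and 264 CPM in the culture libraries, 322, 418 and 289 CPM in the bone marrow libraries and 199.8, 264 and 271 CPM in the lung libraries (log2 change -0.49 ± 0.14, adjusted p = 0.0287). In each case the lung and bone marrow libraries did not overlap.

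These stalk calls were near the threshold. Without bone marrow replicate 2 none of them passed (adjusted p = 0.0632, 0.106 and 0.105 for Rplp0, Rplp1 and Rplp2). Without lung replicate 1 none did either (0.0554, 0.0926 and 0.0853), and without lung replicate 2 Rplp0 and Rplp1 did not (0.0632 and 0.0519). With only the 6 libraries of these groups fitted Rplp1 and Rplp2 did not pass (0.0576 and 0.0662). In bone marrow against culture Rplp1 rose (log2 change 0.47 ± 0.12, adjusted p = 0.00347), and Rplp0 did not pass (log2 change 0.18 ± 0.09, adjusted p = 0.112). Rplp0 passed without bone marrow replicate 1 (adjusted p = 0.0493), under upper-quartile scaling (0.0326) and under library size alone (0.0301). Rplp2 passed by a narrow margin (adjusted p = 0.0434) and lost the call in 8 of 20 alternatives, among them without bone marrow replicate 2 (adjusted p = 0.192). The other 6 single libraries whose omission ended it were culture replicates 1, 2 and 3, bone marrow replicate 1 and lung replicates 2 and 3 (adjusted p from 0.0501 to 0.145).

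Rpl5 and Rpl11, the partners of the smallest ribosomal RNA of the large subunit and binders of Mdm2, both rose in bone marrow against culture. Rpl5 was at 213, 189.5 and 198 CPM in the culture libraries, 292, 341 and 290.2 CPM in the bone marrow libraries and 231, 231 and 258 CPM in the lung libraries (log2 change 0.62 ± 0.09, adjusted p = 3.58e-05). Rpl11 was at 217, 191 and 187 CPM in the culture libraries, 258, 292 and 214 CPM in the bone marrow libraries and 192, 212 and 227 CPM in the lung libraries (log2 change 0.36 ± 0.11, adjusted p = 0.0123), with a bone marrow library inside the range of culture. The Rpl11 call was lost without culture replicate 2 or 3 or bone marrow replicate 2 (adjusted p = 0.0581, 0.0618 and 0.0647). In lung against bone marrow Rpl5 fell (log2 change -0.36 ± 0.09, adjusted p = 0.00969), and Rpl11 did not pass (log2 change -0.27 ± 0.11, adjusted p = 0.0831). The Rpl11 value passed without bone marrow replicate 3 (adjusted p = 0.00963), without the low-count filter (0.0342) and under upper-quartile scaling (0.044). Whether the changes of these partners differ was not tested.

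Calls were spread over the sites of the ribosome. Of the 14 proteins of the small subunit head, 10 rose in bone marrow against culture and 9 fell in lung against bone marrow. Of the 8 proteins around the exit of the peptide tunnel, 5 rose in bone marrow against culture and 7 fell in lung against bone marrow. That 7 was 3 without bone marrow replicate 2, and 4 without lung replicate 1 or 2. The exit protein Rpl39, a very short chain, went from 89.9 ± 15.4 CPM in bone marrow to 62.4 ± 6.78 CPM in lung (log2 change -0.53 ± 0.13), and lost that call without bone marrow replicate 2 (adjusted p = 0.0534). Of the 17 genes mutated in Diamond-Blackfan anaemia, 12 rose in bone marrow against culture and 11 fell in lung against bone marrow. That 11 was 4 without bone marrow replicate 2 or lung replicate 1, and 7 without lung replicate 2. Over all members tested 65.5% rose in bone marrow and 67.8% fell in lung against bone marrow, and over all genes tested 30.7% and 11.1%. Rpsa, the laminin receptor and a small subunit protein, was at 515, 501 and 552 CPM in the culture libraries, 685, 875 and 633 CPM in the bone marrow libraries and 514, 542 and 575 CPM in the lung libraries (log2 change 0.48 ± 0.11, adjusted p = 0.00147 in bone marrow against culture, and log2 change -0.43 ± 0.11, adjusted p = 0.0112 in lung against bone marrow).

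Paralogs can replace a main ribosomal protein in some cells, and the ratio to the main gene differed without overlap between bone marrow and culture in 3 of the 7 pairs tested. Such separation was common, since the levels of 5172 of all 15066 genes separated in the higher direction and 4957 in the lower. No ratio passed after adjustment over the 21 tested (exact permutation test, lowest adjusted p = 0.233). Rpl22l1, the paralog of Rpl22 on chromosome 3 from 28805436 to 28807424, was the 1 member that fell in bone marrow against culture in edgeR, where DESeq2 and limma-voom each called 3 members lower. It was at 52.4, 47.8 and 45.2 CPM in the culture libraries, 29.2, 30.6 and 38.8 CPM in the bone marrow libraries and 31.6, 32.2 and 37.1 CPM in the lung libraries (log2 change -0.56 ± 0.12, adjusted p = 0.00114). Rpl22, on chromosome 4 from 152325742 to 152334071, rose at the same time (log2 change 0.63 ± 0.11, adjusted p = 0.00029). The ratio of Rpl22l1 to Rpl22 was 78.8%, 83.0% and 75.1% in the culture libraries, 31.9%, 27.6% and 46.8% in bone marrow and 54.3%, 49.8% and 52.9% in lung. None of the 3 groups overlapped with another. Rpl22l1 shares 81.5% of its windows with other genes and Rpl22 31.0%, so reads of both could be split with other genes.

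On the log2 scale that ratio was -0.34 ± 0.07 for culture, -1.53 ± 0.39 for bone marrow and -0.94 ± 0.06 for lung (SD, n = 3), a difference of -1.19 for bone marrow against culture, -0.59 for lung against culture and 0.60 for lung against bone marrow. Each had an exact permutation p of 0.1 (two-sided), the smallest that 3 against 3 allow, and 0.233 after adjustment over the 21 ratios tested. The Rpl22 protein is known as a repressor of Rpl22l1, which these RNA counts do not test. Rpl22l1 did not pass in lung against bone marrow (log2 change 0.03 ± 0.12, adjusted p = 0.864), while Rpl22 fell.

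Rps27l, a paralog of Rps27 known as a p53-induced gene, lies on chromosome 9 from 66946086 to 66949516 and Rps27 on chromosome 3 from 90212522 to 90213651. Rps27l was at 147, 129.8 and 144 CPM in the culture libraries, 239, 297 and 270.3 CPM in the bone marrow libraries and 174, 183 and 228 CPM in the lung libraries. It was lowest in culture, highest in bone marrow and between them in lung, with no overlap between any 2 groups. The ratio of Rps27l to Rps27 was 56.2%, 59.8% and 67.9% in culture, 146.0%, 133.9% and 181.6% in bone marrow and 146.0%, 118.7% and 145.3% in lung. The paralog was thus below the main gene in every culture library and above it in all 6 libraries from mice. As log2 the ratio went from -0.71 ± 0.14 in culture to 0.61 ± 0.23 in bone marrow and 0.44 ± 0.17 in lung (exact permutation p = 0.1 each, 0.233 adjusted). Bone marrow and lung overlapped (difference -0.17, exact permutation p = 0.5, 0.808 adjusted). Rps27 shares 100% of its windows with other genes and Rps27l 48.3%, so reads of Rps27 could be split with its copies.

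**Figure D4:**
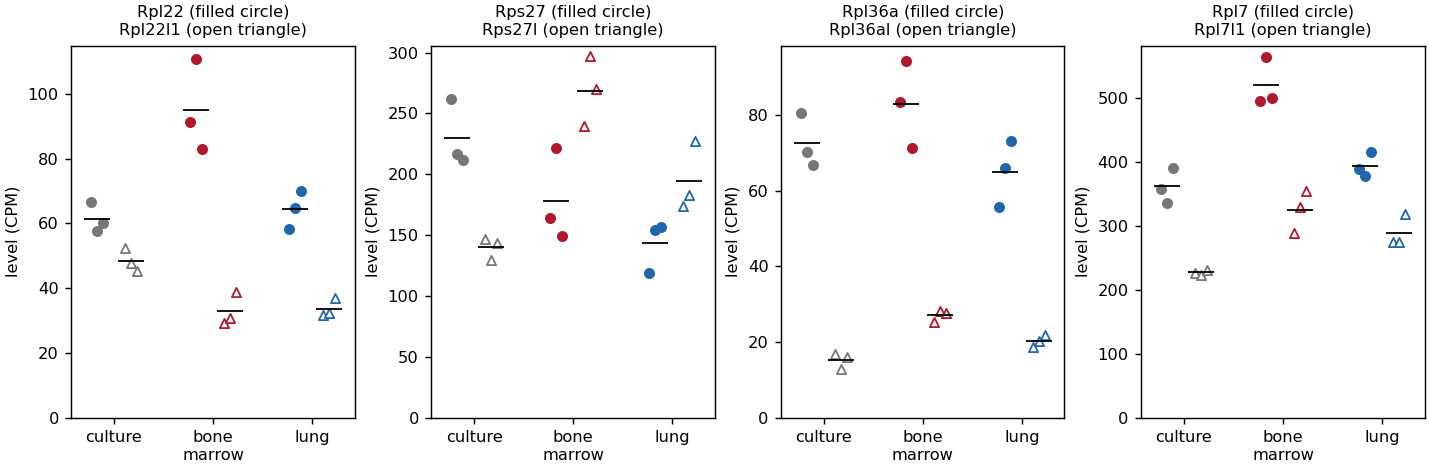
Level in CPM of 4 main genes (filled circles) and their paralogs (open triangles) in each library, with a line at each group mean. Rps27l lies below Rps27 in culture and above it in bone marrow and lung, and Rpl22l1 falls where Rpl22 rises in bone marrow.

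Rpl36al, a close relative of Rpl36a, was at 16.7, 13 and 15.9 CPM in the culture libraries, 25.2, 28.3 and 27.7 CPM in the bone marrow libraries and 18.7, 20.1 and 22.0 CPM in the lung libraries. Its ratio to Rpl36a was -2.26 ± 0.18 for culture, -1.61 ± 0.21 for bone marrow and -1.67 ± 0.09 for lung on the log2 scale, without overlap between culture and either tissue (exact permutation p = 0.1 each, 0.233 adjusted). Rpl36al and Rpl36a each share 100% of their windows with other genes, so both levels and their ratio are uncertain. Rpl36a itself did not pass in bone marrow against culture (log2 change 0.19 ± 0.12, adjusted p = 0.186). Its fall in lung against bone marrow (adjusted p = 0.0479) had libraries that overlap and was lost in 10 of 20 alternatives. Those include the omission of any single library but bone marrow replicate 3 and lung replicate 3, with adjusted p from 0.0509 to 0.197. The fall of Rpl36al in lung against bone marrow (log2 change -0.42 ± 0.12, adjusted p = 0.0223) was lost without bone marrow replicate 2, lung replicate 1 or lung replicate 2 (adjusted p = 0.0703, 0.0805 and 0.0595).

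Rpl7l1, a nucleolar relative of Rpl7, was at 226, 224 and 232 CPM in the culture libraries, 289, 330.0 and 355 CPM in the bone marrow libraries and 274, 275 and 319 CPM in the lung libraries. It rose in bone marrow (log2 change 0.51 ± 0.09, adjusted p = 0.000241) beside Rpl7 (log2 change 0.52 ± 0.08, adjusted p = 0.000112), and the difference of their log2 ratio between these groups was -0.02 (exact permutation p = 0.8, 0.933 adjusted). The copies Rps3a2 and Rps3a3 stayed at or below 1.54 CPM in every library, beside 478 ± 25 CPM for culture, 546 ± 52.7 CPM for bone marrow and 434 ± 19.9 CPM for lung for Rps3a1. Rpl39l, Rpl3l, Rps4l and Rps23rg1 had 6, 53, 28 and 5 reads over all 9 libraries and were not tested. Rpl10l and Rps12l1 had 0 reads, which allows up to 3 reads over the 9 libraries by counting error alone. That limit does not cover how reads with several matches were counted, and Rps12l1 shares 100% of its windows with other genes.

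Fau and Rack1, outside the symbol pattern, both rose in bone marrow against culture. Rack1, a signalling scaffold on the small subunit, was at 701, 665 and 720.1 CPM in the culture libraries, 1157, 1377 and 1158 CPM in the bone marrow libraries and 919, 949 and 985 CPM in the lung libraries (log2 change 0.82 ± 0.08, adjusted p = 2.15e-06). Fau, a fusion with a ubiquitin-like protein, rose by 0.40 ± 0.10 on the log2 scale. Both fell in lung against bone marrow, Rack1 by a log2 change of -0.37 ± 0.08 (adjusted p = 0.00671) and Fau by one of -0.42 ± 0.10 (adjusted p = 0.00749).

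Other genes with TOP messages moved with the ribosomal proteins in bone marrow. Of 20 translation factors and other TOP genes, 14 rose and 2 fell in bone marrow against culture (median log2 change 0.45), 0 rose and 10 fell in lung against bone marrow (median -0.27), and 8 rose and 3 fell in lung against culture (median 0.14). Over all genes 30.7% were called higher and 29.8% lower in bone marrow against culture, 14.2% and 11.1% in lung against bone marrow, and 27.9% and 27% in lung against culture. The shares of the list were 70% and 10%, 0% and 50%, and 40% and 15% in the same order. Without bone marrow replicate 2 or lung replicate 2 the 10 became 6 and 4, and DESeq2 called 1 higher, as did an unadjusted p under 0.05, and limma-voom 0. Without culture replicate 1 or 2 the 8 became 5, and without lung replicate 3 it became 4. Of those lower, the 2 became 4 without bone marrow replicate 1, and the 3 became 5 without bone marrow replicate 3. Eef1d, an exchange factor of the elongation machinery, was at 149.8, 141 and 152 CPM in the culture libraries, 348, 369 and 313 CPM in the bone marrow libraries and 279, 282 and 320.2 CPM in the lung libraries (log2 change 1.22 ± 0.09, adjusted p = 7.34e-08). Eef1b2, of the same complex, fell in lung against bone marrow (log2 change -0.49 ± 0.09, adjusted p = 0.00231), and so did Eef1a1, the elongation factor that delivers tRNA (log2 change -0.47 ± 0.10).

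Eif2s3x, a subunit of the initiator tRNA carrier, and Pabpc1, the poly(A)-binding protein, went the other way in bone marrow against culture. Their log2 changes were -0.64 ± 0.09 and -0.45 ± 0.11. Eef2, the translocase, did not pass (log2 change -0.24 ± 0.12, adjusted p = 0.0941).

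**Figure D5:**
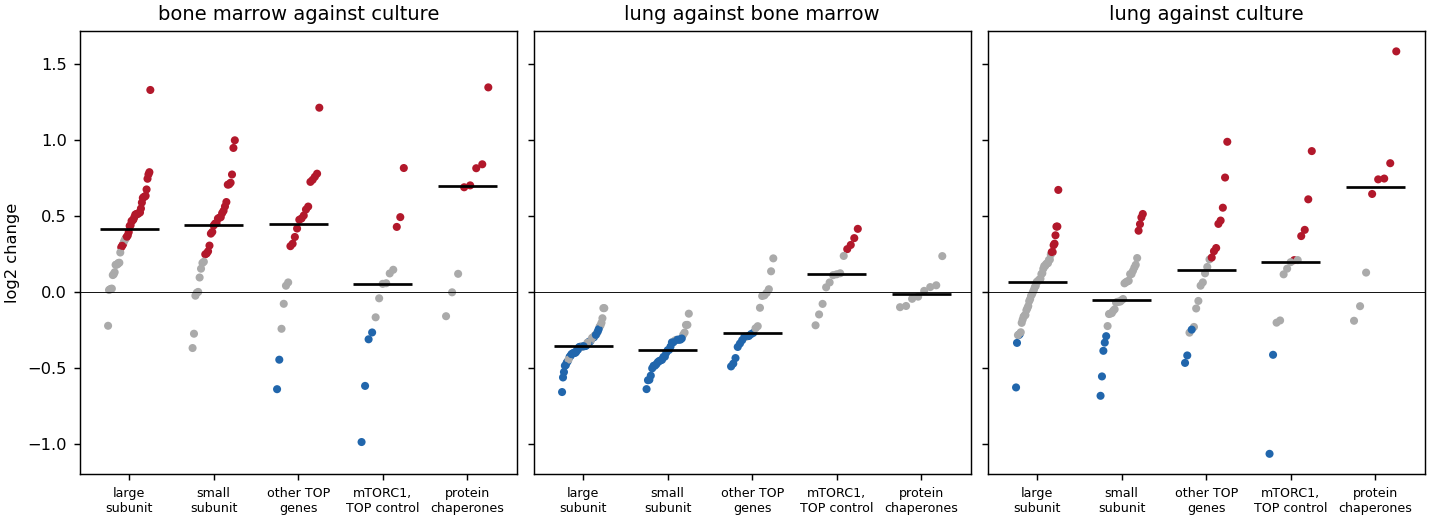
Log2 change of each tested gene of 5 lists in the 3 comparisons (red called higher, blue called lower, grey no call), with a line at the list's median. In lung against bone marrow both subunits have medians near -0.36 and -0.38, the other TOP genes -0.27, and genes of TOP control and single-protein chaperones 0.12 and -0.01.

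Genes that control TOP messages gave calls in both directions. Of 13 tested genes of mTORC1 and its effectors, 3 rose and 4 fell in bone marrow against culture, 4 rose and 0 fell in lung against bone marrow, and 5 rose and 2 fell in lung against culture. In bone marrow against culture these are 23.1% higher and 30.8% lower, near the 30.7% and 29.8% of all genes. The shares higher were 30.8% in lung against bone marrow and 38.5% in lung against culture, beside 14.2% and 27.9% of all genes. Without culture replicate 2 the 5 became 3. DESeq2 and limma-voom called 0 lower in lung against bone marrow, and 1 was lower at an unadjusted p under 0.05. Eif4ebp1, the translation inhibitor that mTORC1 switches off, was at 227, 214 and 216 CPM in the culture libraries, 121, 115 and 95.4 CPM in the bone marrow libraries and 103, 101 and 110.1 CPM in the lung libraries (log2 change -0.99 ± 0.09, adjusted p = 7.88e-07). Mlst8, a subunit of both mTOR complexes, was at 28.1, 28 and 24.0 CPM in the culture libraries, 49.8, 41.6 and 49.9 CPM in the bone marrow libraries and 51.3, 50.6 and 50.8 CPM in the lung libraries (log2 change 0.82 ± 0.10, adjusted p = 1.3e-05). Both kept these sides in lung, where Eif4ebp1 stood -1.07 and Mlst8 0.93 from culture on the log2 scale.

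The 4 genes that rose in lung against bone marrow were Larp1, Larp1b, Larp4 and Mtor, the last chosen after its values were seen. The count was 0 without bone marrow replicate 2 or lung replicate 1, 2 without culture replicate 3 and 1 without any other single library but bone marrow replicate 1, where it was 5. Larp1, which binds the TOP tract, was at 402, 379 and 383 CPM in the culture libraries, 487, 365 and 359.9 CPM in the bone marrow libraries and 500.4, 496 and 505 CPM in the lung libraries (log2 change 0.31 ± 0.10, adjusted p = 0.0409). Its call was lost in 10 of 20 alternatives, under upper-quartile scaling (adjusted p = 0.065), with 6 libraries (0.0904) and without any single library but bone marrow replicate 1 (0.0631 to 0.164). Larp1b (log2 change 0.42 ± 0.12) lost its call in 8, with 6 libraries and without any single library but culture replicate 3 and bone marrow replicate 1 (adjusted p from 0.0536 to 0.113). Larp4, a relative that binds poly(A) tails (log2 change 0.36 ± 0.10), lost it without bone marrow replicate 2, lung replicate 1 or lung replicate 3 (0.073, 0.0547 and 0.0552). Mtor, the kinase itself, had a log2 change of 0.28 ± 0.10 (adjusted p = 0.0481).

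Most chaperones that carry single ribosomal proteins rose in both tissues against culture. Of 8 tested, 5 rose in bone marrow and 5 in lung against culture in edgeR (62.5% each), beside 30.7% and 27.9% of all genes. The other 3 did not pass, and were chosen after their values were seen. Aamp had log2 changes of 0.12 ± 0.08 in bone marrow and 0.13 ± 0.08 in lung, Pdcd2l of -0.16 ± 0.11 and -0.19 ± 0.11, and Prmt3 of -0.00 ± 0.11 and -0.09 ± 0.11. In lung against bone marrow 0 passed in edgeR, DESeq2 or limma-voom, and 1 was higher at an unadjusted p under 0.05. Grwd1, the chaperone of Rpl3, was at 57.5, 59.5 and 59.9 CPM in the culture libraries, 137, 155 and 158 CPM in the bone marrow libraries and 153, 171 and 207 CPM in the lung libraries (log2 change 1.35 ± 0.11, adjusted p = 1.82e-07). Heatr3, which brings Rpl5 into the nucleus, rose by 0.82 ± 0.07 and Bccip, the chaperone of Rpl23, by 0.84 ± 0.09 on the log2 scale. Tsr2, the chaperone of Rps26, rose by 0.69 ± 0.10 and Ltv1, an assembly factor for Rps3, by 0.70 ± 0.08. Of their clients, Rpl3 and Rpl23 did not pass in bone marrow against culture (log2 change 0.02 ± 0.09 and 0.11 ± 0.11). Rpl5 rose by 0.62 ± 0.09, Rps26 by 0.27 ± 0.11 and Rps3 by 0.25 ± 0.09, with the Rps3 call lost in 6 of 20 alternatives.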

How the data were processed

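The deposited values are read counts per gene symbol, 1 table per library, made by the authors without regard to strand, as the unstranded mark in the file names has it. The submitters' processing notes name bcl2fastq, STAR and the genome build mm10. They give no versions, counting tool or annotation, nor how reads with several matches were treated. Per the labels' protocols, RNA came from micro columns, SMART-seq v4 amplification was used, and ThruPLEX reagents served for the libraries.

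The members and all gene lists were chosen with earlier results of these data known. The filterByExpr filter left 15066 genes, which hold at least 99.9% of the reads of each library. Libraries were scaled with TMM, and CPM uses the scaled sizes. The 3 comparisons come from 1 fit of all 9 libraries with edgeR 4.0.16 (quasi-likelihood, robust, under R 4.3.3). The threshold was a Benjamini-Hochberg adjusted p of 0.05 over all genes tested. Errors of a log2 change are standard errors, and those of a level are SD over 3 libraries. Named genes are the 5 largest rises and falls of each comparison among passing members that reach 10 CPM and whose groups do not overlap. The rule adds the paralogs and their main genes, the stalk proteins, Rpl5, Rpl11, Rpsa, the 5 most abundant members, and up to 3 passing genes per direction of each pathway list. Others are marked or belong to a list. Some genes the rule names are not reported here. Paralog ratios were compared with exact permutation tests. Gene positions, coding sequences and shared 50-base windows come from GENCODE M21 (GRCm38), in which 92 of the 93 members were found. Promoters come from RefSeq. Scripts were tested on simulated data. No 2 libraries of a group were duplicates, with chi-square per degree of freedom from 3.92 to 43.9. Alternatives were other scalings and filters, DESeq2 1.42.0, limma-voom (limma 3.58.1), fits of 6 libraries, the replicate block and omission of each library.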

Additional observations from a re-analysis of the deposited data

How the results depend on the processing

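The number of members lower in lung than in bone marrow ranged from 25 to 76 when single libraries were left out and was 39 with only the 6 libraries of these groups. Members lower in bone marrow than in culture numbered 1 as reported, 3 each without the low-count filter, with DESeq2 and with limma-voom, and 0 among the canonical members alone, an alternative added after the data were seen. Leaving out single libraries gave 1 to 4 of them. Members higher in bone marrow than in culture numbered 43 to 63 without single libraries. Members higher in lung than in culture numbered 25 with 6 libraries and 12 to 18 without single libraries, and those lower 5 to 13. The other counts of members stayed within 1.5 times the reported ones, except for the block values below. The median log2 change of the members without single libraries was 0.30 to 0.49 in bone marrow against culture, -0.45 to -0.26 in lung against bone marrow and -0.06 to 0.10 in lung against culture. Of 2737 single gene results under alternatives, 2611 kept their call or lack of one, 94 lost it, 32 gained it and 0 reversed. Upper-quartile scaling moved the median of all genes in bone marrow against culture to 0.12, and scaling by library size alone to 0.11. In lung against bone marrow upper-quartile scaling called 1796 of all genes higher and 2088 lower, where the reported fit called 2138 and 1668, and 66 members lower.

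Labels give the groups the same replicate numbers but do not say what a number marks. Over all genes tested, residuals of same-numbered libraries correlated at 0.03, 0.27 and 0.09 between lung and bone marrow and at -0.06, 0.00 and -0.02 between bone marrow and culture, and 3 and 1 of 6 libraries correlated best with their own number. Between lung and culture the correlations were -0.03, 0.00 and -0.02, and 0 of 6 did. Over the members alone the correlations were 0.31, 0.13 and 0.37 between bone marrow and culture, 0.25, 0.59 and 0.03 between lung and bone marrow and -0.08, 0.37 and -0.10 between lung and culture. With the replicate block, members lower in bone marrow than in culture numbered 2 in 9 libraries and 3 in 6, and members lower in lung than in bone marrow 56 and 68. Members higher in bone marrow than in culture numbered 57 and 56 with the block. The causes of these differences were not tested. Counting error bears mainly on members of a few CPM, since every library held at least 27485111 counted reads.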
